A study of Homo sapiens with 12 samples.

Results

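The 40 genes described here belong to the arms of the stress response that are run by the transcription factor ATF4 and by the endoplasmic reticulum (ER). They were matched by symbol among the 58381 genes of the table, and all 40 were found. The ATF4 arm has 29 members (transcription factors, enzymes of amino acid and one-carbon metabolism, amino acid transporters, and feedback and stress effectors). The ER arm has 11 members, namely the 3 stress sensors and 8 genes for chaperones, for ER-associated degradation (ERAD) and for the factor XBP1.

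Polyadenylated RNA was sequenced from 4 sublines of HMC-1, a human mast cell leukemia line, with 3 libraries each, so that the effect of reverting 1 of 2 activating variants of the receptor KIT could be followed. The KIT of HMC-1.1 has V560G, and that of HMC-1.2 has V560G together with D816V. HMC-1.3 clone 1 and HMC-1.3 clone 2 were made from HMC-1.2 by CRISPR/Cas9 reversion of V560G, puromycin selection and limiting dilution, and keep mono-allelic D816V-KIT. All 4 groups were untreated cells grown in the same serum-containing medium. In all 4 groups the 3 libraries come from wells plated from 1 line, so that the p-values below measure the spread between wells. Each HMC-1.3 group is 1 clone, and an effect of the reversion cannot be told apart from a difference between clones.

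ATF4 is made when the initiation factor eIF2alpha is phosphorylated, which kinases such as PERK (EIF2AK3), GCN2, PKR and HRI do in response to misfolded ER proteins, lack of amino acids, viral RNA or lack of heme. ATF4 then activates genes that import and make amino acids and, when the stress lasts, genes such as DDIT3 (CHOP) that are linked to cell death. The ER itself is watched by PERK, by IRE1 (ERN1), which splices the XBP1 mRNA, and by ATF6, which is cut in the Golgi. XBP1 and ATF6 drive the ER chaperones and the ERAD genes, so the ATF4 arm can be used without the ER arm, as in amino acid shortage.

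The arms differ in the elements of their promoters, which are shown because they name the factors that each arm is known to answer to. RefSeq promoter windows (GRCh38.p14, 250 bases before to 50 bases after the start site) were found for 35 of the 40 members and searched on both strands. The C/EBP-ATF element (TGATGNAA), which ATF4 binds with C/EBP partners, was present in a window of 8 of 24 ATF4 arm members and 1 of 11 ER arm members (HERPUD1), against 4.46% of 27305 genes. The 8 were ASNS, CHAC1, SLC3A2, SLC7A1, SLC1A5, SLC1A4, CEBPG and ATF3. Next come 30 bases of 4 of these promoters on the strand of the gene, with the element in capitals.
ASNS: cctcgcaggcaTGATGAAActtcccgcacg
CEBPG: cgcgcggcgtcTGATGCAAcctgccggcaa
SLC1A5: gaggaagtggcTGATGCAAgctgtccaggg
CHAC1: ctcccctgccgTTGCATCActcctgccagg

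These stretches lie at chr7:97872458-97872487 (ASNS, minus strand), chr19:33374060-33374089 (CEBPG, plus strand), chr19:46784893-46784922 (SLC1A5, minus strand) and chr15:40953251-40953280 (CHAC1, plus strand, element on the opposite strand of the gene). The ER stress element (CCAAT and CCACG with 9 bases of any kind between them), which NF-Y and ATF6 bind, was present in 4 of 11 ER arm members and 0 of 24 ATF4 arm members, against 0.09% of genes. The 4 were HSPA5, HSP90B1, XBP1 and CALR, shown in the same way, with 1 of the 2 matches of HSP90B1.
HSPA5: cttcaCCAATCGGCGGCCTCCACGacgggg
HSP90B1: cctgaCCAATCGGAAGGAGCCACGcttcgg
XBP1: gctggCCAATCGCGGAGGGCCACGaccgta
CALR: ccacgCGTGGTCGACCATCATTGGtcggtg

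Their positions are chr9:125241385-125241414 (HSPA5, minus strand), chr12:103930211-103930240 (HSP90B1, plus strand), chr22:28800597-28800626 (XBP1, minus strand) and chr19:12938379-12938408 (CALR, plus strand, element on the opposite strand of the gene). The shorter UPR element (TGACGTGG) was present in 0 of the 35 members, against 0.93% of genes, and its last bases, CGTGG, are CCACG read on the other strand. A match describes these letters and is not evidence of binding, and no binding was measured.

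Expected counts per library totalled 29225900 to 43181402, and 15944 genes passed the filter on low counts. Summed FPKM (fragments per kilobase of transcript, scaled to library size) of 12 mast cell markers was 2684 to 2726 in HMC-1.2 and 1969 to 2129 over the other groups, with 9 or 10 of the 12 markers at 1 FPKM or more in each group. Summed FPKM of 14 markers of other cell types was 1.33 to 4.16, apart from 10.9 in 1 clone 2 library with 7.85 for the keratin gene KRT18. Mitochondrially encoded genes took 2.27% to 2.6% of counts in clone 1, 1.96% to 2.42% in clone 2, 1.84% to 2.28% in HMC-1.1 and 1.77% to 1.99% in HMC-1.2, so that clone 1 and HMC-1.2 did not overlap. The part of these differences in the results below was not tested. Over all genes, clone 1 differed from HMC-1.2, its parent, at 3193 genes and from HMC-1.1 at 161, while clone 2 differed from the same lines at 2630 and 1306. The reads were not used, so the KIT genotype of the libraries was not checked.

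The ATF4 arm was highest in clone 1 and lowest in clone 2, whereas the summed level of the ER arm was highest in HMC-1.2 and lowest in clone 1. The ER sum is carried by abundant chaperones such as CALR, HSP90B1 and HSPA5, and the median log2 fold change of its members against HMC-1.2 was no lower in clone 1 (-0.28) than in HMC-1.1 (-0.31). Summed FPKM of the 29 ATF4 arm members was 4058 ± 81.7 (SD, n = 3) in clone 1, 3617 ± 53 in HMC-1.1, 2884 ± 79.7 in HMC-1.2 and 2435 ± 42 in clone 2. That of the 11 ER arm members was 937 ± 22.9 in clone 1, 1130 ± 15.3 in HMC-1.1, 1535 ± 15.7 in HMC-1.2 and 1368 ± 28.5 in clone 2. The ranges of the 4 groups did not overlap on either sum, so that clone 1 and HMC-1.1 joined a high ATF4 arm to a low ER arm, and clone 2 had a low ATF4 arm beside an ER arm nearer to HMC-1.2. These are bulk cultures, in which a lower level in every cell and fewer cells with the RNA cannot be told apart. No test was made of these sums, because the members were chosen with results of these data known.

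**Figure D1:**
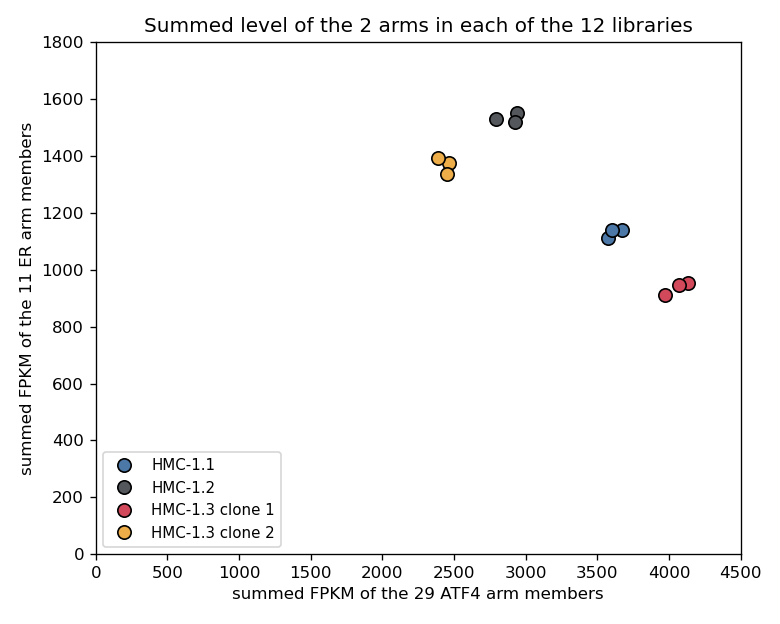
Each point is 1 of the 12 libraries, placed by the summed FPKM of the 29 ATF4 arm members (x axis) and of the 11 ER arm members (y axis), coloured by group. The 3 clone 1 libraries lie at the lower right (3970 to 4131 and 911 to 953), HMC-1.1 next to them, HMC-1.2 at the top, and clone 2 at the left (2387 to 2465).

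Differences were tested with the quasi-likelihood test of edgeR on all genes, and genes were called where the Benjamini-Hochberg adjusted p was under 0.05 and the fold over 1.5. Of the ATF4 arm 26 members could be tested, and of the ER arm 11. In clone 1 against HMC-1.2, 13 of the 26 ATF4 arm members were higher and 1 was lower, against 11.8% of all genes tested called higher and 8.18% called lower. Among the 11 ER arm members 0 were higher and 4 were lower. In clone 2 against HMC-1.2, 0 ATF4 arm members were higher and 2 were lower, while 7.98% of all genes were called higher and 8.51% lower, and 0 ER arm members were called in either direction. When the fold was not considered, 19 ATF4 arm members were lower in clone 2 and 0 higher, and 8 ER arm members were lower and 0 higher, beside 23.8% of all genes lower and 24.7% higher. Counted in that way, 23 ATF4 arm members were higher in clone 1 and 2 lower, with 3 and 7 in the ER arm, beside 30.1% of all genes higher and 29.3% lower. Against HMC-1.2, HMC-1.1 had 9 ATF4 arm members higher and 1 lower, and 0 ER arm members higher and 3 lower, where 10.1% of all genes were called higher and 7.52% lower. At any fold HMC-1.1 had 22 ATF4 arm members higher and 2 lower, and 3 and 7 in the ER arm, beside 27.2% and 26.5% of all genes. These comparisons share the HMC-1.2 libraries.

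For the ATF4 arm the median log2 fold change relative to HMC-1.2 was 0.57 (clone 1), -0.32 (clone 2) and 0.36 (HMC-1.1), and for the ER arm it was -0.28, -0.17 and -0.31 in the same order, beside medians of all genes tested between 0 and 0.01. NUPR1 passed the filter through its counts in clone 1 and HMC-1.1. Without it, 12 of 25 ATF4 arm members were higher in clone 1 and the median was 0.55. For HMC-1.1 against HMC-1.2 these values were 8 of 25 and 0.34.

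**Figure D2:**
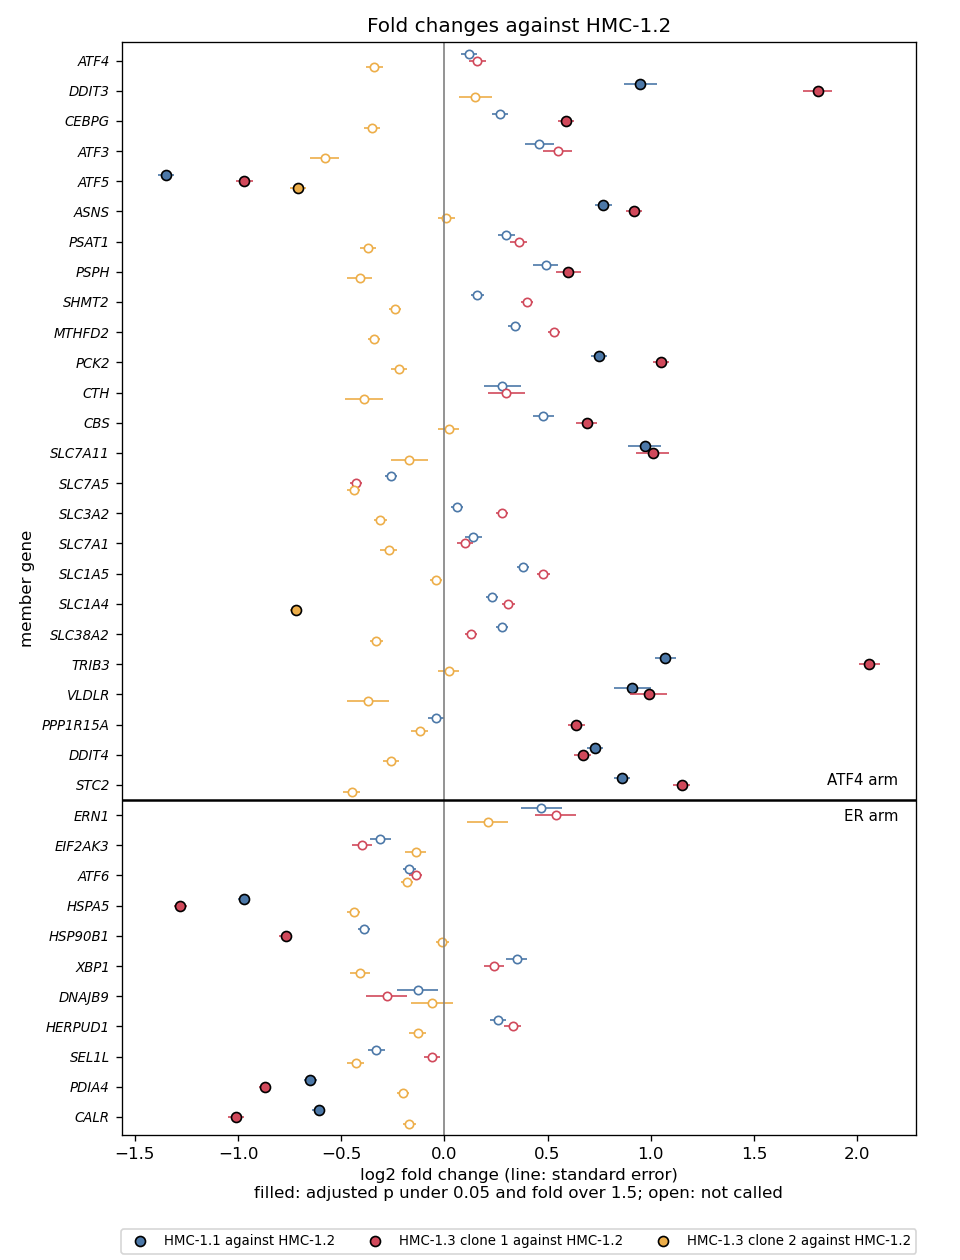
Points give the log2 fold change against HMC-1.2 (x axis) of 36 tested members (y axis, NUPR1 not drawn), with lines for the standard error, filled where the gene was called and open where it was not. Clone 1 (red) and HMC-1.1 (blue) lie mostly to the right of 0 in the ATF4 arm, and their filled points in the ER arm lie to the left. Clone 2 (yellow) lies mostly left of 0, with 2 filled points, ATF5 and SLC1A4.

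**Figure D3:**
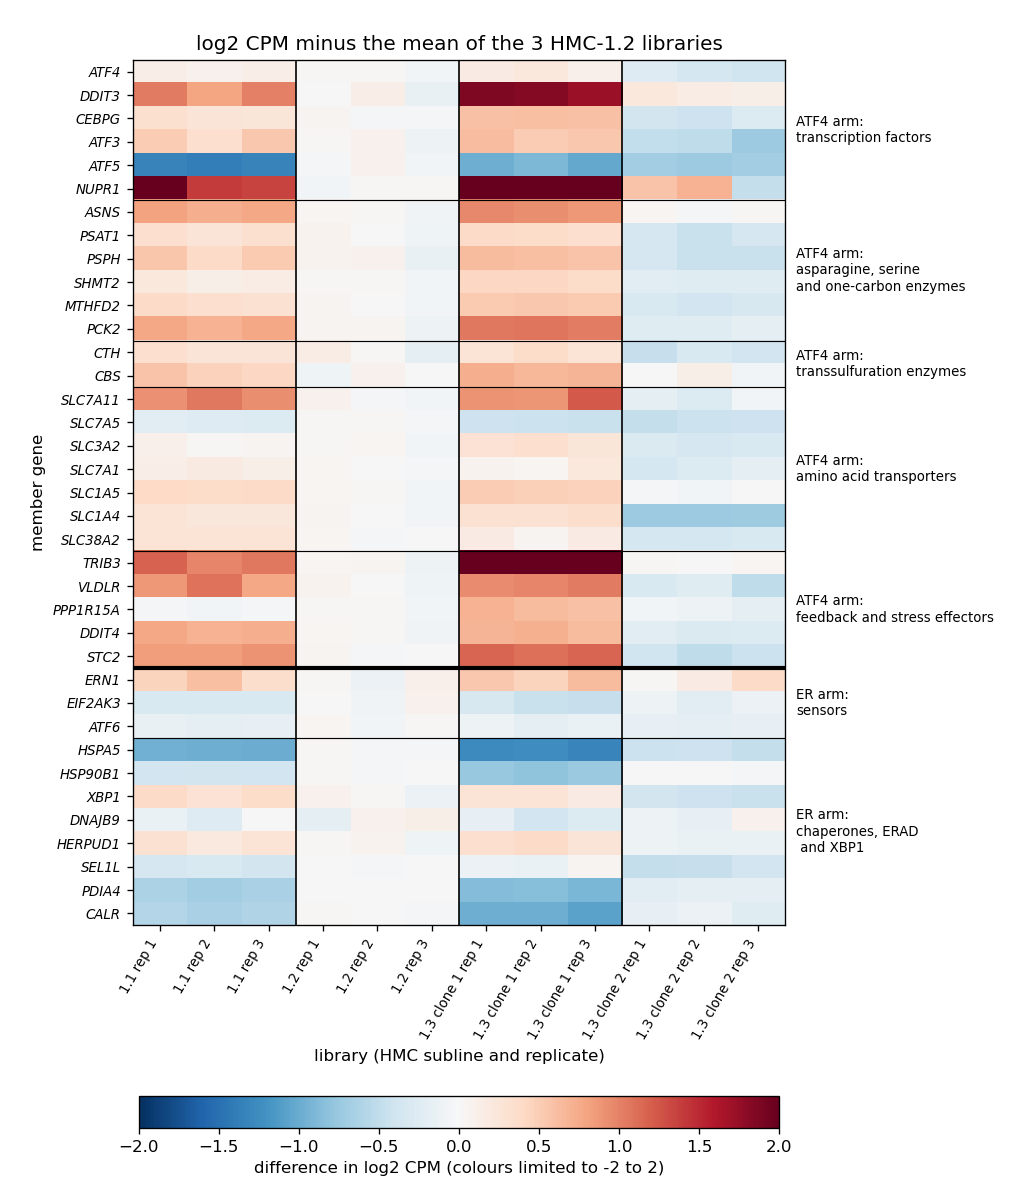
Colours give log2 CPM (counts scaled to library size) of each of the 37 tested members (rows) in each of the 12 libraries (columns) minus the mean of the HMC-1.2 libraries, limited to -2 to 2. The columns of a group look alike, and the red block of clone 1 above the line between the arms turns blue below it for HSPA5, HSP90B1, PDIA4 and CALR.

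RNA of ATF4 itself differed by less than 1.5-fold in the comparisons with HMC-1.2 and between the clones. Its FPKM was 622.97, 611.97 and 624.55 in HMC-1.1, 560.92, 557.21 and 531.91 in HMC-1.2, 650.70, 659.17 and 616.26 in clone 1, and 466.78, 442.85 and 431.36 in clone 2. The clone 2 libraries were the lowest of all, and those of clone 1 and HMC-1.1 overlapped. Relative to HMC-1.2 its log2 fold change was 0.16 ± 0.04 (SE) in clone 1 and -0.34 ± 0.04 in clone 2, under 1.5-fold in both, with edgeR adjusted p of 0.0017 and 1.6e-06. Between the clones it was -0.50 ± 0.04 (clone 2 against clone 1, edgeR adjusted p = 1.7e-08). ATF4 protein, which is set largely by translation, was not measured here.

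Among the transcription factors that follow ATF4, DDIT3, the factor CHOP that promotes cell death under lasting ER stress, moved the most in clone 1 apart from NUPR1. DDIT3 stood at 15.81, 16.69 and 14.35 FPKM in HMC-1.2 and at 60.26, 57.84 and 54.43 in clone 1, with 33.66, 28.80 and 32.65 in HMC-1.1 and 18.51, 17.86 and 17.62 in clone 2. The clone 1 libraries were above all the others and those of HMC-1.1 came next. The rise in clone 1 was 3.5-fold (log2 fold change 1.81 ± 0.07, edgeR adjusted p = 1.9e-12), and in clone 2 the difference was 0.15 ± 0.08 (edgeR adjusted p = 0.14), although the FPKM ranges of clone 2 and HMC-1.2 did not overlap.

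NUPR1, a small stress-induced chromatin protein, was near the limit of detection. It had 30, 30 and 29 counts in clone 1, 19, 8 and 8 in HMC-1.1, 1, 1 and 1 in HMC-1.2 and 3, 4 and 0 in clone 2. Per total count the ratio of clone 1 to HMC-1.2 was 26.9 (95% interval for counting error 8.92 to 133), and that of clone 2 to HMC-1.2 was 1.93 (0.441 to 11.6), so only the first exceeded counting error.

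CEBPG, a C/EBP partner of ATF4 whose promoter carries the element printed above, averaged 44.3 ± 0.103 FPKM in clone 1, 34.9 ± 1.09 in HMC-1.1, 28.2 ± 0.62 in HMC-1.2 and 22.5 ± 1.29 in clone 2 (SD, n = 3). Its rise in clone 1 sat on the threshold (1.5-fold, log2 fold change 0.59), and it was no longer called with DESeq2 (0.57) or RLE factors (0.58), or when 1 of 8 libraries was left out (0.58 without HMC-1.1 replicate 1 or 3, HMC-1.2 replicate 2 or 3, clone 1 replicate 1 or 2, or clone 2 replicate 2 or 3). ATF3, a repressor induced by many stresses, averaged 19.1 ± 1.85 FPKM in clone 1, 19.1 ± 0.892 in HMC-1.1, 13 ± 1.03 in HMC-1.2 and 9.80 ± 0.631 in clone 2. Its log2 fold changes of 0.55 in clone 1 and -0.58 in clone 2 stayed just inside 1.5-fold. It was called in clone 1 without HMC-1.2 replicate 2 (0.59), and in clone 2 without HMC-1.2 replicate 3 (-0.63) or without clone 2 replicate 1 or 2 (-0.62 each).

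ATF5, a factor of the ATF4 family that acts in the mitochondrial stress response, went the other way. It stood at 75.73, 80.86 and 76.53 FPKM in HMC-1.2, at 31.99, 30.38 and 31.80 in HMC-1.1, at 41.57, 43.03 and 40.30 in clone 1 and at 47.93, 47.28 and 49.47 in clone 2. All 9 libraries of the other groups were below all HMC-1.2 libraries, and no ranges overlapped. Relative to HMC-1.2 it differed by -0.97 ± 0.04 (clone 1), -0.71 ± 0.04 (clone 2) and -1.35 ± 0.04 (HMC-1.1) on the log2 scale, and it was the member called lower in the ATF4 arm in all 3 comparisons.

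**Figure D4:**
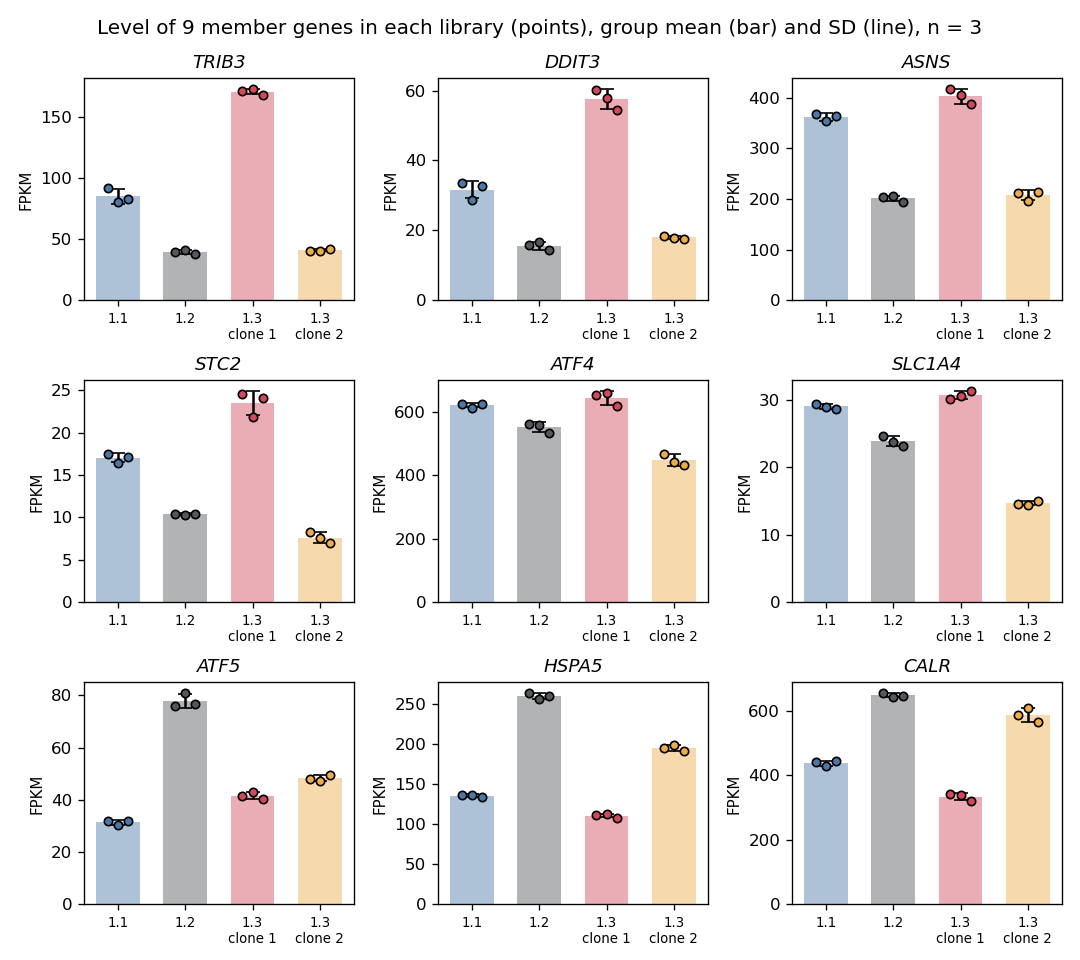
FPKM (y axis, from 0) of 9 members in the 4 groups (x axis), with a point for each library, a bar for the group mean and a line for the SD (n = 3). TRIB3, DDIT3, ASNS and STC2 peak in clone 1, SLC1A4 is lowest in clone 2, ATF5 is highest in HMC-1.2, and HSPA5 and CALR are lowest in clone 1.

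The 6 tested enzymes grouped under asparagine, serine and one-carbon metabolism, with PCK2 placed among them, all passed an adjusted p of 0.05 upward in clone 1. Of the 6, 3 were called (ASNS, PCK2 and PSPH). Of all genes tested, 30.1% passed it upward and 11.8% were called higher. ASNS makes asparagine and is a standard readout of ATF4. It stood at 204.02, 205.23 and 194.99 FPKM in HMC-1.2 and 212.76, 196.49 and 213.37 in clone 2, and at 416.48, 404.44 and 387.75 in clone 1 and 367.57, 353.46 and 364.05 in HMC-1.1. Libraries fell into a high pair and a low pair of groups, with the ranges of HMC-1.2 and clone 2 overlapping. ASNS rose 1.89-fold in clone 1 (log2 fold change 0.92 ± 0.04, edgeR adjusted p = 1.1e-12), and in clone 2 the log2 difference was 0.01 ± 0.04.

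PCK2, the mitochondrial enzyme that makes phosphoenolpyruvate, was at 99.88, 101.22 and 90.58 FPKM in HMC-1.2, 209.29, 212.05 and 204.57 in clone 1, 171.42, 161.94 and 170.09 in HMC-1.1 and 84.36, 83.34 and 89.72 in clone 2. No 2 groups overlapped, and the order from clone 1 down to clone 2 was that of the summed arm. PCK2 thus rose by 1.05 ± 0.04 (clone 1) and 0.75 ± 0.04 (HMC-1.1) on the log2 scale.

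PSAT1 and PSPH, which carry out the later steps of serine synthesis, averaged 297 ± 5.86 and 60.3 ± 2.83 FPKM in clone 1, 221 ± 8.86 and 35.2 ± 2.56 in HMC-1.2, and 175 ± 8.89 and 29 ± 1.3 in clone 2. PSPH was called in clone 1 at 1.51-fold (log2 fold change 0.60), a call that was lost with DESeq2 or RLE factors (0.58 each) and without HMC-1.2 replicate 3 (0.53) or clone 1 replicate 1 (0.57). MTHFD2 and SHMT2, the mitochondrial enzymes that pass serine carbon to folate, differed by 0.53 ± 0.03 and 0.40 ± 0.03 in clone 1 and by -0.34 ± 0.03 and -0.24 ± 0.03 in clone 2 on the log2 scale. PHGDH, which starts serine synthesis from glucose, was nearly absent in every group, with 0 to 13 counts a library and at most 0.31 FPKM, so PSAT1 and PSPH were found at high levels without it. ALDH1L2, a mitochondrial folate enzyme, had 4 to 15 counts, and neither gene could be tested.

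The transsulfuration enzymes CBS and CTH, which turn homocysteine into cysteine, were both past an adjusted p of 0.05 upward in clone 1. That held for 30.1% of all genes tested. CBS averaged 74.2 ± 2.17 FPKM in clone 1, 64.3 ± 3.82 in HMC-1.1, 44.1 ± 2.48 in HMC-1.2 and 45.9 ± 2.15 in clone 2, and its rise in clone 1 was called (1.61-fold). CBS is uncertain, since its near-identical copy CBSL took 2003 to 5090 counts a library. CTH averaged 5.81 ± 0.33 FPKM in clone 1, 5.63 ± 0.168 in HMC-1.1, 4.55 ± 0.552 in HMC-1.2 and 3.56 ± 0.315 in clone 2 and was not called against HMC-1.2.

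Of the 7 amino acid transporters, 1 was called higher in clone 1 and 1 other was called lower in clone 2 against HMC-1.2. These counts are near the shares of all genes called in those directions, 11.8% and 8.51%. SLC7A11, the cystine-glutamate exchanger, rose in clone 1. It was at 2.81, 2.62 and 2.58 FPKM in HMC-1.2, 5.17, 5.16 and 6.5 in clone 1, 5.15, 5.70 and 5.22 in HMC-1.1 and 2.54, 2.23 and 2.64 in clone 2. The high and low pairs of groups did not overlap, while within each pair they did. On the log2 scale SLC7A11 rose by 1.01 ± 0.08 in clone 1 (edgeR adjusted p = 1.5e-08), and clone 2 differed by -0.17 ± 0.09 (edgeR adjusted p = 0.11).

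SLC1A4, a carrier of serine and other neutral amino acids, fell in clone 2. It was at 14.64, 14.44 and 15.01 FPKM in clone 2, 24.58, 23.82 and 23.16 in HMC-1.2, 30.12, 30.51 and 31.30 in clone 1 and 29.43, 29 and 28.58 in HMC-1.1. Clone 2 stood well below every other library, with a log2 fold change of -0.72 ± 0.03 against HMC-1.2 (edgeR adjusted p = 1.6e-11). SLC1A5, the glutamine carrier, averaged 283 ± 7.96 FPKM in clone 1, 260 ± 2.64 in HMC-1.1, 193 ± 5.67 in HMC-1.2 and 191 ± 3.7 in clone 2. Its 1.4-fold difference in clone 1 was not called. SLC1A4 and SLC1A5 both had the C/EBP-ATF element in a promoter window.

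SLC7A5 and SLC3A2 are the light and heavy chains of a transporter of large neutral amino acids, and they did not move together in clone 1. SLC3A2 averaged 257 ± 7.98 FPKM in clone 1 against 202 ± 12.1 in HMC-1.2 (log2 difference 0.28 ± 0.03), and SLC7A5 averaged 234 ± 3.37 against 303 ± 4.42 (-0.43 ± 0.03). In clone 2 both were lower (-0.31 ± 0.03 and -0.44 ± 0.03), and none of these differences reached 1.5-fold. SLC38A2, a carrier of small neutral amino acids, and SLC7A1, which carries arginine and lysine, differed by 0.13 ± 0.03 and 0.10 ± 0.04 in clone 1 and by -0.33 ± 0.03 and -0.27 ± 0.04 in clone 2.

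The feedback and stress effectors were the group with 5 of 5 tested members called higher in clone 1, against 11.8% of all genes. In clone 2, 0 of 5 were called, against 7.98% higher and 8.51% lower. Tested directly against a 1.5-fold change, PPP1R15A lost its call in clone 1 (glmTreat adjusted p = 0.2). That test called 1076 of 15944 genes higher. TRIB3, a pseudokinase that restrains ATF4, had the largest change of the tested members in clone 1 apart from NUPR1. It stood at 39.84, 40.90 and 38.02 FPKM in HMC-1.2 and 40.17, 40.73 and 41.74 in clone 2, and at 171.28, 172.67 and 168.36 in clone 1 and 92.26, 80.72 and 83.00 in HMC-1.1. HMC-1.2 and clone 2 overlapped, and clone 1 and HMC-1.1 were each apart. TRIB3 rose 4.18-fold in clone 1 (log2 fold change 2.06 ± 0.05, edgeR adjusted p = 8e-16) and 2.1-fold in HMC-1.1, and differed by 0.02 ± 0.05 in clone 2.

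STC2, a secreted glycoprotein, was at 10.45, 10.27 and 10.44 FPKM in HMC-1.2, 24.48, 21.80 and 24.07 in clone 1, 17.51, 16.44 and 17.14 in HMC-1.1 and 8.33, 7.53 and 7.00 in clone 2. The 4 groups did not overlap, in the same order as PCK2. It rose by 1.15 ± 0.04 in clone 1 and 0.86 ± 0.04 in HMC-1.1 on the log2 scale, and its difference in clone 2, -0.45 ± 0.04, was under 1.5-fold.

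VLDLR, a lipoprotein receptor, was at 1.75, 1.89 and 2.11 FPKM in HMC-1.2, 3.46, 3.64 and 3.69 in clone 1, 3.11, 3.83 and 3.14 in HMC-1.1 and 1.46, 1.49 and 1.32 in clone 2. DDIT4, an inhibitor of the growth kinase complex mTORC1, was at 157.65, 156.21 and 149.06 FPKM in HMC-1.2, 256.16, 259.10 and 247.40 in clone 1, 270.57, 258.10 and 262.64 in HMC-1.1 and 133.57, 128.65 and 130.27 in clone 2. For both genes clone 1 and HMC-1.1 overlapped, above HMC-1.2, and clone 2 was below it. The log2 fold changes in clone 1 were 0.99 ± 0.09 for VLDLR and 0.67 ± 0.04 for DDIT4.

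PPP1R15A (GADD34), the phosphatase subunit that removes the phosphate from eIF2alpha, separated clone 1 from HMC-1.1. It averaged 105 ± 4.57 FPKM in clone 1 and 65 ± 0.383, 65 ± 1.43 and 61.2 ± 2.36 in HMC-1.1, HMC-1.2 and clone 2, so that the rise was seen in clone 1 among the 4 groups (log2 fold change 0.64 ± 0.04 against HMC-1.2). CHAC1, an enzyme that breaks down glutathione and has an ATF4 element in its promoter, had 3, 2 and 2 counts in HMC-1.1 and 2, 2 and 1 in clone 1, and 0 in each library of HMC-1.2 and clone 2. CHAC1 did not pass the filter on low counts and was not tested.

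In the ER arm, RNA of the 3 sensors differed from HMC-1.2 by less than 1.5-fold in the test of counts. EIF2AK3 (PERK) was at 8.61, 8.38 and 9.92 FPKM in HMC-1.2, 8.06, 8.01 and 7.69 in clone 1, 8.44, 8.37 and 7.73 in HMC-1.1 and 8.41, 7.65 and 8.88 in clone 2. ATF6 was at 16.02, 15.05 and 16.08 FPKM in HMC-1.2, 15.40, 14.25 and 15.22 in clone 1, 14.69, 14.29 and 14.30 in HMC-1.1 and 14.03, 13.97 and 14.36 in clone 2. ERN1 (IRE1) was at 1.74, 1.44 and 1.65 FPKM in HMC-1.2, 2.66, 2.59 and 2.83 in clone 1, 2.45, 2.43 and 2.24 in HMC-1.1 and 1.55, 1.90 and 1.94 in clone 2. Most groups overlapped for EIF2AK3 and ATF6, whereas for ERN1 clone 1 and HMC-1.1 stood above HMC-1.2 and clone 2.

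The log2 fold changes in clone 1 against HMC-1.2 were -0.40 ± 0.05 for EIF2AK3, -0.14 ± 0.03 for ATF6 and 0.54 ± 0.10 for ERN1, and the last was called when HMC-1.2 replicate 3 was left out (0.59) and in FPKM with limma (0.71 on log2(FPKM + 0.1)). Phosphorylation of PERK and IRE1 and cleavage of ATF6, by which these sensors act, cannot be read from these values.

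The major chaperones fell in clone 1. HSPA5 (BiP), the HSP70 chaperone that binds the sensors and carries the ER stress element shown above, was at 264.07, 256.07 and 259.98 FPKM in HMC-1.2, 111.46, 113.25 and 108.42 in clone 1, 137.02, 136.71 and 133.97 in HMC-1.1 and 194.80, 199.47 and 191.33 in clone 2. All 4 groups were apart, with HMC-1.2 highest. The fall was 2.43-fold in clone 1 (log2 fold change -1.28 ± 0.03, edgeR adjusted p = 8.4e-16) and 1.96-fold in HMC-1.1, and the 1.35-fold difference in clone 2 (-0.44 ± 0.03) was not called.

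CALR, a calcium-binding chaperone of glycoproteins, was at 655.62, 643.43 and 646.03 FPKM in HMC-1.2, 342.42, 339.09 and 321.81 in clone 1, 441.34, 428.78 and 443.68 in HMC-1.1 and 587.98, 609.99 and 566.07 in clone 2. PDIA4, a disulfide isomerase, was at 111.10, 110.64 and 111.62 FPKM in HMC-1.2, 63.11, 63.68 and 61.80 in clone 1, 74.12, 71.54 and 73.38 in HMC-1.1 and 96.30, 99.14 and 99.67 in clone 2. Both genes kept the order of HSPA5 with no overlap between groups. The log2 fold changes in clone 1 were -1.01 ± 0.04 for CALR and -0.87 ± 0.03 for PDIA4. The fall of CALR in HMC-1.1 (1.53-fold) was not called in the deposited FPKM with limma (-0.57).

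HSP90B1 (GRP94), the HSP90 of the ER, averaged 187 ± 1.25 FPKM in clone 1, 243 ± 1.41 in HMC-1.1, 311 ± 3.99 in HMC-1.2 and 315 ± 6.04 in clone 2. It fell 1.71-fold in clone 1 (log2 fold change -0.77 ± 0.03), while the difference of clone 2 from HMC-1.2 was -0.01 ± 0.03 (edgeR adjusted p = 0.74).

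XBP1 and HERPUD1 did not follow the chaperones. XBP1, whose RNA here is the sum of its spliced and unspliced forms, averaged 122 ± 4.13 FPKM in HMC-1.1, 114 ± 5.03 in clone 1, 92.9 ± 5.22 in HMC-1.2 and 71.7 ± 1.46 in clone 2. HERPUD1, an ERAD adaptor that was the ER arm member with a C/EBP-ATF element, averaged 80 ± 5.73 FPKM in clone 1, 75.8 ± 2.32 in HMC-1.1, 63 ± 1.21 in HMC-1.2 and 57.3 ± 2.34 in clone 2. This order, clone 1 and HMC-1.1 above HMC-1.2 and clone 2 lowest, was that of most of the ATF4 arm, although neither gene was called against HMC-1.2. XBP1 had an ER stress element and no C/EBP-ATF match, and the part of the elements in these orders was not tested. SEL1L, the scaffold of the ERAD ligase HRD1, averaged 18.2 ± 0.274 FPKM in HMC-1.2, 18.1 ± 1.53 in clone 1, 14.4 ± 0.259 in HMC-1.1 and 13.7 ± 0.58 in clone 2, and DNAJB9, an HSP40 co-chaperone, stayed between 3.35 and 4.63 FPKM in all libraries.

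The 4 group means were also ranked gene by gene. The mean was highest in clone 1 for 21 of the 26 tested ATF4 arm members (80.8%), against 29.4% of all genes tested, and lowest in clone 2 for 20 (76.9%), against 24.4%. Every clone 1 library was above the other 9 for 16 of the 26 (61.5%), against 9.45% of all genes. NUPR1, which passed the filter through its counts in clone 1 and HMC-1.1, is among the 21 and the 16. For the ER arm, the mean was highest in HMC-1.2 for 8 of 11 (72.7%), against 32.7%, and lowest in clone 1 for 6 (54.5%, against 26.9%) and in clone 2 for 4 (36.4%, against 24.4%). Every clone 1 library was below the other 9 for 5 of 11 (45.5%), against 8.94%.

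The clones were then compared directly, since both carry D816V-KIT alone. In clone 2 against clone 1, 0 ATF4 arm members were higher and 20 of 26 were lower, where 4.25% of all genes were called higher and 8.38% lower. All 6 tested enzymes of the asparagine, serine and one-carbon group, which includes PCK2, and all 5 tested effectors were among the 20. TRIB3 fell by 2.04 ± 0.05, DDIT3 by 1.66 ± 0.07, STC2 by 1.60 ± 0.04 and PCK2 by 1.27 ± 0.04 on the log2 scale, each with all clone 2 libraries below all clone 1 libraries. The median log2 fold change of the 26 was -0.89. Without NUPR1, 19 of 25 were lower and the median was -0.87. The 6 members that were not called were ATF4 (-0.50 ± 0.04), SLC1A5 (-0.52 ± 0.03), SLC38A2 (-0.47 ± 0.03), SLC7A1 (-0.38 ± 0.04), SLC7A5 (-0.01 ± 0.03) and ATF5 (0.26 ± 0.04).

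In the ER arm 4 of 11 members were higher in clone 2 than in clone 1 and 1 was lower, beside 4.25% and 8.38% of all genes. The 4 were HSPA5 (log2 fold change 0.85 ± 0.03, edgeR adjusted p = 6.6e-13), CALR (0.83 ± 0.03), HSP90B1 (0.76 ± 0.03) and PDIA4 (0.67 ± 0.03). XBP1 was lower (-0.65 ± 0.05, edgeR adjusted p = 6e-09), and 1 lower call among 11 members is near the share of all genes. SLC3A2 was the call nearest the threshold in this comparison (-0.59, 1.51-fold), and it was lost with DESeq2 or RLE factors (-0.58 each) and without clone 1 replicate 1 (-0.58), clone 1 replicate 2 (-0.56) or clone 2 replicate 2 (-0.58).

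HMC-1.1, the line with V560G-KIT alone, was then compared with each clone. In clone 1 against HMC-1.1, 4 ATF4 arm members were higher and 0 were lower, against 0.671% and 0.339% of all genes tested, and 0 ER arm members were called. The 4 were TRIB3 (0.99 ± 0.05), DDIT3 (0.86 ± 0.07), PPP1R15A (0.68 ± 0.04) and NUPR1 (1.38 ± 0.41). NUPR1 lost its call when 1 of 5 single libraries was left out (HMC-1.1 replicate 2 or 3, or any clone 1 replicate), at edgeR adjusted p of 0.056 to 0.12. Without NUPR1, 3 of 25 ATF4 arm members were higher. Tested directly against a 1.5-fold change, 1 of the 4 remained, TRIB3. At any fold, 14 ATF4 arm members were higher in clone 1 and 2 lower, with 1 and 4 in the ER arm. Of the 15944 genes tested, 1415 were higher and 1568 lower in that way.

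In clone 2 against HMC-1.1, 1 ATF4 arm member (ATF5, 0.64 ± 0.04) was higher and 17 were lower, against 3.04% and 5.15% of all genes. STC2 (-1.31 ± 0.04), VLDLR (-1.28 ± 0.09), SLC7A11 (-1.14 ± 0.08), TRIB3 (-1.05 ± 0.05) and ATF3 (-1.04 ± 0.07) were among the 17, as was NUPR1, which lost its call without HMC-1.1 replicate 1 (edgeR adjusted p = 0.057). Without NUPR1, 16 of 25 ATF4 arm members were lower and 1 was higher. XBP1 (-0.76 ± 0.05) was lower in the ER arm and 0 members were higher there. With 11 members tested, these counts are near the shares of all genes.

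Other genes of these pathways were followed in lists. Of 16 tested other described ATF4 targets, 9 were higher and 0 lower in clone 1 against HMC-1.2, 2 were higher and 3 lower in clone 2, and 12 were lower and 0 higher in clone 2 against clone 1. The shares of all genes called higher and lower were 11.8% and 8.18% in clone 1, 7.98% and 8.51% in clone 2, and 4.25% and 8.38% between the clones, so that the counts of clone 2 against HMC-1.2 are those nearest to the background. JDP2, a repressor of AP-1, had a log2 fold change of 1.61 ± 0.19 in clone 1 and -1.3 ± 0.24 in clone 2. It was called in opposite directions, as was another gene of the list. SLC6A9, a glycine transporter, was higher in both (2.1 ± 0.07 and 0.86 ± 0.07), as was GADD45A, a growth arrest gene (0.98 ± 0.09 and 0.82 ± 0.09). KLHL24, an adaptor of a ubiquitin ligase, was higher in clone 1 (1.08 ± 0.06). The medians of the list were 0.66 in clone 1 and -0.15 in clone 2. HMC-1.1 against HMC-1.2 had 6 of the 16 higher and 0 lower (median 0.51), beside 10.1% and 7.52% of all genes.

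Of 20 cytosolic aminoacyl-tRNA synthetases, which load tRNAs with amino acids, 4 were higher and 1 lower in clone 1 against HMC-1.2 and 1 was higher in clone 2. AARS1 (0.81 ± 0.03) led the 4, and RARS1 (-0.68 ± 0.04) was lower. Of all genes 11.8% were called higher and 8.18% lower in clone 1, and 7.98% and 8.51% in clone 2. The counts of called synthetases were near or below these shares apart from the 4 of 20. At any fold, 14 synthetases were higher and 3 lower in clone 1 (median log2 fold change 0.31), and 7 and 4 in clone 2 (0). Of all genes 30.1% were higher and 29.3% lower at any fold in clone 1, and 24.7% and 23.8% in clone 2. Of 18 other ER chaperones and folding enzymes, 1 was higher and 4 lower in clone 1. The higher one was the oxidase ERO1B (2.14 ± 0.39), at a low level of 0.03 to 0.47 FPKM in all libraries. Calnexin (CANX) fell by 1.24 ± 0.03, MANF by 1.08 ± 0.05 and SDF2L1 by 0.79 ± 0.05 on the log2 scale. In clone 2 against HMC-1.2, 2 were higher and 1 lower. CANX fell there too (-0.95 ± 0.03), ERO1B was higher (1.66 ± 0.4), and so was SIL1 (0.59 ± 0.05), a co-chaperone of HSPA5 that is named after its values were seen, whereas MANF (-0.02 ± 0.04) and SDF2L1 (0.05 ± 0.04) were not called. The shares of all genes were those given for the synthetases. With 18 genes, a count of 1 to 2 calls in a direction is thus near the background. At any fold, 14 of the 18 were lower and 2 higher in clone 1 (median -0.4), and 7 and 3 in clone 2 (-0.04). HMC-1.1 was near clone 1 in both lists. Against HMC-1.2, AARS1 was its 1 called synthetase (higher), and at any fold 16 were higher and 2 lower. Among the ER genes ERO1B was called higher there and CANX and MANF lower. At any fold 15 of the 18 were lower and 2 higher (median -0.27), beside 26.5% and 27.2% of all genes.

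Among 15 ERAD genes, FAF2, which brings the extraction ATPase to the ER, was the 1 call in each clone (-1.06 ± 0.05 in clone 1 and -1.2 ± 0.05 in clone 2). Among 14 tested genes for eIF2 and its kinases, EIF2S3 was higher (0.60 ± 0.03) and EIF2B1 lower (-0.69 ± 0.04) in clone 1, and 0 were called in clone 2. Of 8 tested genes of the ATF6 and CREB3 family and their proteases, CREB3L4 was higher (0.63 ± 0.05) and the protease gene MBTPS1 lower (-0.64 ± 0.03) in clone 1, and CREB3L3 was higher in clone 2 (0.72 ± 0.22). With 0 or 1 call in each direction, these 3 lists were near or below the called shares of all genes given for the synthetases. At any fold, 10 ERAD genes were lower and 3 higher in clone 1 (median -0.33), and 9 and 3 in clone 2 (-0.18). The eIF2 list had 7 lower and 4 higher in clone 1, and 4 and 3 in clone 2. The ATF6 and CREB3 list had 2 lower and 3 higher in each clone. The shares of all genes at any fold were those given for the synthetases.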

How the data were processed

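RNA of 12 wells (4 groups, 3 libraries each, grouped by the labels) was sequenced from stranded poly(A) libraries as read pairs. The submitters' processing notes name Cutadapt 2.10, STAR 2.5.3, Picard, RSEM 1.3.0, DESeq2 and hg38. Per gene, the authors deposited expected counts as RSEM estimated them, without normalization and with reads that match several genes divided among them, and 20.55% of the values above 0 are not whole. For 10 members the expected count was not whole in 6 or more libraries (ATF4, ASNS, PSPH, SLC7A5, SLC1A5, CBS, HSPA5, HSP90B1, CALR and ATF6). The authors also deposited FPKM, which correct for library size and transcript length, and each of the 12 FPKM columns matched the counts of its own label best.

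Counts were rounded and tested with edgeR 4.0.16 (R 4.3.3), using TMM factors (0.974 to 1.024), filterByExpr, the 4 groups as the model and its quasi-likelihood test, with Benjamini-Hochberg adjustment over the 15944 genes tested in each comparison. SE are approximate standard errors, taken as the absolute log2 fold change divided by the square root of the F statistic of that test. The log2 CPM used a prior count of 3. Every member may be named by the rule for named genes. Values in every library are given for members called in at least 2 of the 3 comparisons with HMC-1.2, for ATF4, the sensors and others on which a result turns, and from each other list at most 4 genes called in a clone against HMC-1.2, those with the largest changes. SIL1 was named beyond that limit in the list of ER chaperones. The members, lists and tests were chosen with earlier results of these data known. The fit was tested on simulated counts.

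Replicates were compared and no pair agreed within sampling noise (chi-square per degree of freedom 2.99 to 8.75). The labels call 3 libraries resent (HMC-1.2 replicate 1, clone 1 replicate 3 and clone 2 replicate 1). Alternatives were DESeq2 1.42.0, RLE factors, no filter, a filter of 0.5 CPM, only the 2 groups compared, a replicate block, a term for resent libraries, glmTreat against 1.5-fold, limma 3.58.1 on log2(FPKM + 1) and log2(FPKM + 0.1), and leaving out each library. Of the identifiers 99.0% are in Gencode 44 and 58.2% in the same version, and the methods name another release. Intervals for low counts cover counting error only. Promoter sequences are from RefSeq. The reads and the protein measurements of the study were not used here.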

Additional observations from a re-analysis of the deposited data

Results flagged for a closer look

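The log2 fold change against HMC-1.2 differed between the clones for 25 of the 37 tested members, by the test of clone 2 against clone 1 itself. It was lower in clone 2 than in clone 1 for 21 of them. In that test 8.38% of all genes were called lower and 4.25% higher. The largest differences were those of NUPR1 (-3.68, at low counts), TRIB3 (-2.04), DDIT3 (-1.66) and STC2 (-1.60), followed by VLDLR (-1.35), PCK2 (-1.27), SLC7A11 (-1.18), ATF3 (-1.13), SLC1A4 (-1.03) and PSPH (-1.0). CEBPG and DDIT4 differed by -0.94 each, ASNS by -0.91, MTHFD2 by -0.87, PPP1R15A by -0.75 and PSAT1 by -0.73. The smallest were those of CTH (-0.69), CBS (-0.66), XBP1 (-0.65), SHMT2 (-0.63) and SLC3A2 (-0.59). It was higher in clone 2 for the chaperone genes PDIA4 (0.67), HSP90B1 (0.76), CALR (0.83) and HSPA5 (0.85). Each clone is 1 isolate, so that these differences cannot be told apart from differences between single-cell clones of any kind.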

How the results depend on the processing

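Over 4881 member values under the alternatives, 4817 kept their side of the threshold, 55 lost their call and 9 gained one. A turn of direction was counted only where the adjusted p was under 0.05 in the main fit or the alternative. There were 0 such turns, and changes of sign in values past neither were not counted. Of the losses 19 came with glmTreat against 1.5-fold, which left 1 of 4 ATF4 arm calls in clone 1 against HMC-1.1. In clone 1 against HMC-1.2 it ended the calls of PSPH, CEBPG, PPP1R15A and CBS. The replicate block changed 0 of 222 member calls. The replicate numbers share no stated origin, the deviations of samples with the same number correlated at -0.04 to 0.1 over 18 pairs, and 6 of 12 libraries correlated best with their own number. The term for resent libraries ended 1 call, NUPR1 in clone 1 against HMC-1.1 (edgeR adjusted p = 0.061). With the mean over tested members of their differences in log2 CPM in place of the log2 ratio of summed FPKM (another unit, summary and set of members at once), the value of the ATF4 arm relative to HMC-1.2 was 0.67 for clone 1 (0.49 from the sum) and 0.43 for HMC-1.1 (0.33), and that of the ER arm was -0.34 (-0.71) and -0.23 (-0.44). With the median over members, the ATF4 arm was at 0.57 in clone 1 and -0.32 in clone 2 (-0.24 from the sum), and the ER arm at -0.28 (clone 1) and -0.31 (HMC-1.1). The cause of such shifts was not tested. Without 1 library, 12 to 15 ATF4 arm members were called for clone 1 against HMC-1.2 (15 where ALDH1L2 passed the filter and was called), 2 to 3 for clone 2, and 19 to 20 between the clones. Depth limits CHAC1, PHGDH, ALDH1L2 and NUPR1.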

Other observations

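The other tested genes within 2 Mb of each member were examined after the data had been seen. In clone 1 against HMC-1.2 their median log2 fold change was over 0.3 in size for 1 of 37 members, TRIB3, where 31 neighbours had a median of 0.38 beside 2.06 for TRIB3 itself. In clone 2 the neighbours of TRIB3 had a median of 0.34, beside 0.02 for TRIB3. SEL1L stood near its neighbours in clone 2 (-0.43 for SEL1L and -0.52 for 7 neighbours) and in HMC-1.1 (-0.33 and -0.45). In clone 2 against clone 1, 14 neighbours of EIF2AK3 had a median of -0.51, beside 0.26 for EIF2AK3. The part of the neighbourhood in the members' values was not tested.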
